A study of Brassica napus with 22 samples.

Results

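SAUR-like genes encode small auxin up RNA proteins, a large plant family named for transcripts that accumulate soon after exposure to the growth hormone auxin. Here they are the oilseed rape (Brassica napus) genes whose deposited description contains the term SAUR-like, chosen by their own level in separated seed compartments: 1 FPKM or more (fragments mapped to a gene, scaled by its length and by the mapped total) in at least 1 of 7 compartments. That rule took 142 of the 285 genes with the description, out of 101040 genes in the table. Because compartment levels chose them, detection and height of level in the compartments are a description of the family. No test stands behind any value, since the table gives 1 value per group.

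Seeds came from cultivar Topas plants grown in long days, taken while the embryo was globular. The 4 filial compartments, formed by fertilisation, were the embryo proper (2 libraries in the labels), micropylar endosperm (4), peripheral endosperm (2) and chalazal endosperm (3). The 3 maternal compartments were the chalazal proliferating tissue (3), inner seed coat (3) and outer seed coat (2), and whole seeds made up the remaining 3 of 22 libraries. All groups share cultivar and stage, and no group carries a treatment or a transgene.

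In Arabidopsis, the best studied SAUR proteins bind and inhibit phosphatases of clade D of the PP2C family. These phosphatases otherwise switch off the plasma membrane proton pumps, so that SAUR proteins keep the pumps active, the cell wall becomes more acid, expansins loosen it and the cell enlarges. Auxin acts upstream: it enters cells through AUX1 and LAX carriers, is sensed by TIR1 and AFB receptors, and causes the destruction of Aux/IAA repressors of transcription. SAUR numbers below are those of the Arabidopsis locus that the authors list as best match, so several oilseed rape copies share a number, and the roles given are from Arabidopsis.

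Known genes of each tissue were set against the labels. Of 11 copies of the embryo regulators LEC1, LEC2, FUS3 and ABI3, 10 reached 5 FPKM in the embryo proper, but 4 also did so in the micropylar endosperm, where they summed to 116 FPKM against 446 FPKM in the embryo proper. Copies of the endosperm genes AGL62, MINI3 and FIS2 summed to 748 to 1734 FPKM in the 3 endosperm compartments and to at most 27 FPKM elsewhere. The micropylar endosperm had the lowest of these sums, 748 FPKM, with 10 of 25 copies at 5 FPKM or more and 15 at 0. Its sum was mostly MINI3, with 360 FPKM for BnaAnng25430D and 225 FPKM for BnaC03g77690D. Among those AGL62 copies only BnaA02g06310D was above 0 there, at 24 FPKM. The 10 copies of the maternal genes TT16 and BAN summed to 1824 FPKM in the chalazal proliferating tissue and 1113 FPKM in the inner seed coat. The inner seed coat sum was nearly all TT16, at 51 to 322 FPKM a copy, since the 4 BAN copies had 1, 0, 0 and 0 FPKM there, against 7 to 24 FPKM in the chalazal proliferating tissue. GL2 and MUM4, genes of the seed coat epidermis, summed to 80 FPKM in the outer seed coat and 56 FPKM in the micropylar endosperm. The GL2 copies had 12 and 35 FPKM in the outer seed coat, 1 FPKM each in the inner seed coat and 0 in the other compartments. The micropylar endosperm sum was all MUM4, whose copies had 35, 15, 6 and 0 FPKM there. The same MUM4 copies had 4, 14, 10 and 5 FPKM in the outer seed coat. The whole seed column had 336 FPKM for the TT16 and BAN copies, and 4 FPKM or less for the embryo and endosperm lists. Organelle and ribosomal RNA genes took 36.9% of the summed FPKM in the micropylar endosperm and 4.16% to 16% in the other compartments. Read depth is not stated. In bulk tissue, fewer cells of a type and less RNA per cell cannot be told apart.

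SAUR-like genes were detected less widely than other genes. Of the 285 annotated, 49.8% reached 1 FPKM in a compartment, against 66.4% of all genes with compartment values, and the median highest level was 3 FPKM for the 142 SAUR-like genes against 9 FPKM for all detected genes. Detection in exactly 1 compartment held for 77 of the 142 (54.2%), against 21.8% of all detected genes. A single SAUR-like gene, BnaA01g02430D, was detected in all 7 compartments, which 24.7% of all detected genes were. Neither comparison was matched for level. A level of 5 FPKM in a compartment was reached by 42.3% of the 142, against 65.5% of all detected genes. What part low level has in the narrow detection was not tested. Just inside the threshold stood 54 genes whose highest value was exactly 1 FPKM, and just outside it 143 annotated genes listed at 0 in all 7 compartments. Only 60 reached 5 FPKM, 45 reached 10 FPKM, 14 reached 50 FPKM and 1 passed 100 FPKM. The genes were short, with a median length of 443.5 bases (range 192 to 1671) against 1166 bases for all detected genes, and the deposited length equalled the genomic span, leaving no room for an intron, in 87.3% of them against 14.7%.

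The order of the compartments depended on whether genes or their levels were counted. By number detected, the inner seed coat led with 76 SAUR-like genes, followed by the peripheral endosperm with 52 and the chalazal proliferating tissue with 51. The outer seed coat had 29, the micropylar endosperm 22, the embryo proper 19 and the chalazal endosperm 16. Of all detected genes, 70.4%, 64.1%, 63.7%, 61.6%, 45.7%, 51.5% and 53.8% were detected there, in the same order. The inner seed coat thus led for all genes too. Much of this lead consisted of values of exactly 1 FPKM, which made up 47.4% of the detected SAUR-like genes in the inner seed coat and 65.4% in the peripheral endosperm, against 5.26% in the embryo proper and none in the micropylar endosperm. At 5 FPKM or more the chalazal proliferating tissue had 20, the micropylar endosperm 18, the embryo proper and the inner seed coat 16 each, the chalazal endosperm 10, the peripheral endosperm 9 and the outer seed coat 7.

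Summed over the family, the level was 933 FPKM in the micropylar endosperm and 712 FPKM in the chalazal proliferating tissue. The other compartments had 329 FPKM (inner seed coat), 302 FPKM (embryo proper), 239 FPKM (peripheral endosperm), 216 FPKM (chalazal endosperm) and 168 FPKM (outer seed coat). In the micropylar endosperm 1 gene, BnaA04g26700D, supplied 56.3% of the sum, and without it 408 FPKM remained. In the chalazal proliferating tissue the largest contributor supplied 12.5%. As a share of all summed FPKM the family took 0.0601% in the micropylar endosperm, 0.0579% in the chalazal proliferating tissue, but 0.00946% in the chalazal endosperm. The micropylar share was 0.0953% once organelle and ribosomal RNA genes were left out.

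**Figure D1:**
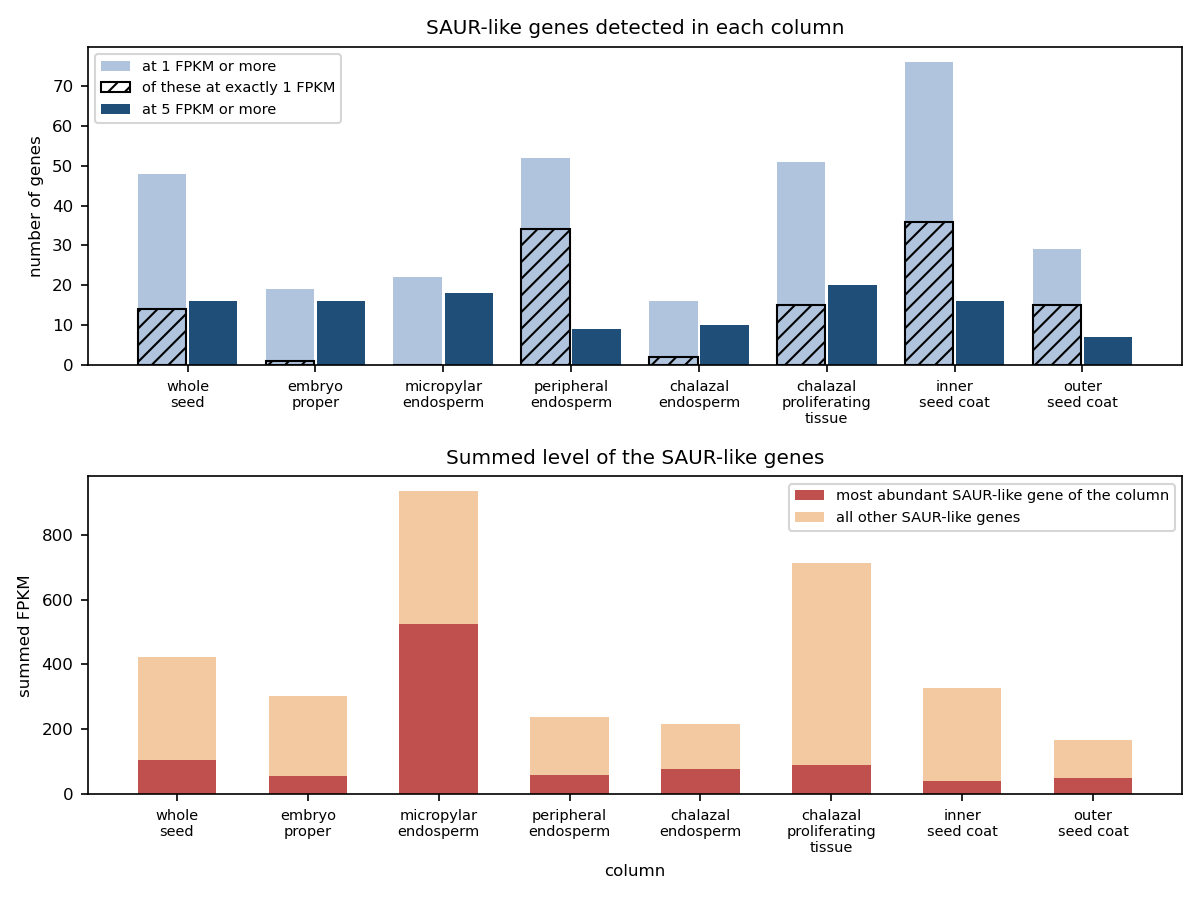
Number of SAUR-like genes detected (upper panel, genes at 1 FPKM or more with the part at exactly 1 FPKM hatched, and genes at 5 FPKM or more) and their summed FPKM (lower panel, with the most abundant gene of each column in red) in the whole seed and the 7 compartments, 1 deposited value per group. The inner seed coat had most detected genes (76, of which 36 at exactly 1 FPKM), and also the largest share of all detected genes (70.4%). The micropylar endosperm (933 FPKM) and the chalazal proliferating tissue (712 FPKM) had the highest sums of the 7 compartments.

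Differences between compartments were taken as the difference of mean log2(FPKM + 1), a scale that understates the change of low genes. Genes counted as higher or lower were those where this reached 1 log2 unit and the mean on the higher side 5 FPKM. It is a rule of size without an error rate. It was applied to the 54278 genes at 1 FPKM or more in at least 2 of the 8 columns, among them 75 of the 142 SAUR-like genes. The other 67, of which 9 reached 5 FPKM in 1 compartment, are given by their values only.

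The chalazal proliferating tissue is maternal tissue that lies between the seed's vascular supply and the chalazal endosperm. It held the highest level of 18 of the 60 SAUR-like genes at 5 FPKM or more, more than any other compartment. At 50 FPKM or more it held the highest level of 7 of 14. The shares of all genes with their highest value there are not given, so these counts only describe the family. Of the 75 compared, 20 (26.7%) were higher there than over the other 6 compartments and 9 (12%) lower, where all genes compared gave 16.5% and 11.2%. The median difference was 0.67 log2 for the SAUR-like genes and -0.07 log2 for all genes compared. Without the filter on low values the SAUR-like median was -0.17 log2.

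SAUR59 was represented by 5 annotated copies, and the 4 that were detected were all highest in the chalazal proliferating tissue. BnaC08g30850D had 72 FPKM there, against 17 FPKM in the inner seed coat, 1 FPKM in the peripheral endosperm and 0 in the remaining 4 compartments. BnaC04g22040D had 70 FPKM against at most 3 FPKM elsewhere, and BnaA09g38680D had 58 FPKM against at most 5 FPKM. The fourth, BnaA04g01170D, stood at 5 FPKM against 1 FPKM in the peripheral endosperm. For the first 3 the difference from the other 6 compartments was 5.33, 5.39 and 5.45 log2.

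Both copies of SAUR33 followed the same order, with a second, lower peak at the other end of the seed. BnaA09g39470D (chromosome A09, 28000616 to 28001282) had 78 FPKM in the chalazal proliferating tissue, 13 FPKM in the micropylar endosperm and 0 in the other 5 compartments. BnaC08g31820D (chromosome C08, 31065942 to 31066584) had 74 FPKM in the chalazal proliferating tissue, 39 FPKM in the micropylar endosperm, 10 FPKM in the embryo proper and 0 elsewhere.

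The most abundant SAUR-like gene of the tissue was a copy of SAUR30, BnaA10g06890D (chromosome A10, 5413890 to 5414500). It had 89 FPKM in the chalazal proliferating tissue, against 10 FPKM in the inner seed coat, 5 FPKM in the peripheral endosperm, 3 FPKM in the micropylar endosperm, 1 FPKM in the outer seed coat and none in the embryo proper and the chalazal endosperm. Among copies of SAUR78, whose Arabidopsis protein binds ethylene receptors and promotes growth, BnaC06g24340D had 32 FPKM there against 10 FPKM in the chalazal endosperm, BnaC06g33620D had 15 FPKM against 0 in every other compartment, and BnaA07g30180D had 11 FPKM against 5 FPKM in the inner seed coat. The fourth detected copy, BnaA07g23070D, was highest in the micropylar endosperm, at 30 FPKM, with 6 FPKM in the chalazal proliferating tissue.

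SAUR49, which in Arabidopsis promotes leaf senescence by suppressing a PP2C phosphatase, was the most widely detected. BnaA01g02430D (chromosome A01, 1232292 to 1233049) had 50 FPKM in the chalazal proliferating tissue, 33 FPKM in the chalazal endosperm, 14 FPKM in the peripheral endosperm, 12 FPKM in the outer seed coat, 9 FPKM in the embryo proper, 4 FPKM in the inner seed coat and 3 FPKM in the micropylar endosperm. Its C copy, BnaC01g03680D, had 18, 13 and 7 FPKM in the first 3 of these, 2 FPKM in the inner seed coat and 0 elsewhere. Both copies therefore had their highest values on either side of the boundary between maternal chalazal tissue and endosperm.

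**Figure D2:**
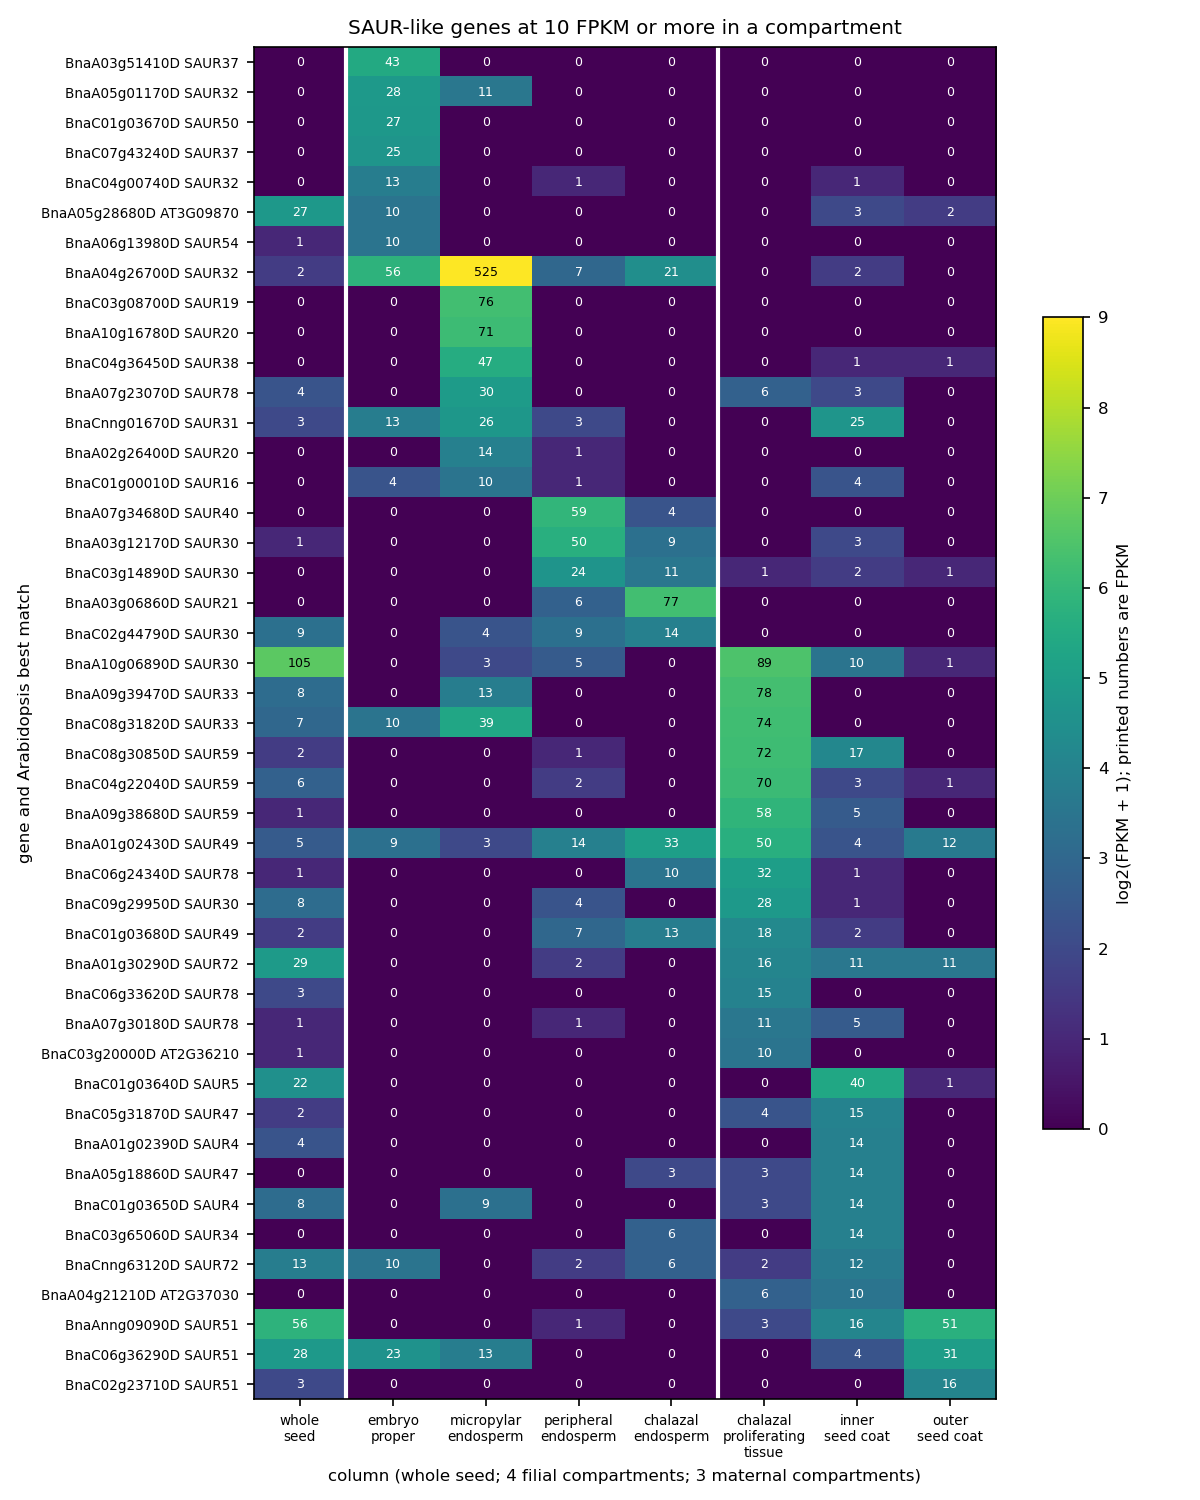
Deposited level (printed numbers, FPKM) of the 45 SAUR-like genes that reached 10 FPKM in a compartment, 1 row per gene with its best Arabidopsis match, in the whole seed, 4 filial and 3 maternal compartments, coloured by log2(FPKM + 1). Rows are ordered by the compartment of the highest value: 14 of the 45 peaked in the chalazal proliferating tissue, and most rows are at 0 in most columns. The share of all genes that peaked in that tissue is not given.

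Micropylar endosperm, which surrounds the embryo, held the most abundant SAUR-like transcript of the seed. BnaA04g26700D (chromosome A04, 18884001 to 18884195) matched SAUR32, a protein that in Arabidopsis counteracts the closure of the apical hook in seedlings. It had 525 FPKM in the micropylar endosperm, 56 FPKM in the embryo proper, 21 FPKM in the chalazal endosperm, 7 FPKM in the peripheral endosperm, 2 FPKM in the inner seed coat and 0 in the other 2 maternal compartments. The gene model is 195 bases long, and genes under 300 bases took 18.5% of the summed FPKM in the micropylar endosperm and 22.2% in the chalazal endosperm, against 4.35% to 9.2% in the other 5. What part gene length has in this level was not tested.

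Both other copies of SAUR32 had their highest value in the embryo proper. BnaA05g01170D had 28 FPKM in the embryo proper and 11 FPKM in the micropylar endosperm, and BnaC04g00740D had 13 FPKM in the embryo proper and at most 1 FPKM elsewhere. The profile of BnaA04g26700D over the 7 compartments was most like those of an oleosin 4 copy, BnaA02g29000D, a cation efflux family gene, BnaC03g26170D, and a dihydrolipoamide acetyltransferase gene, BnaC08g23510D. Pearson's r of log2(FPKM + 1) was 0.99 for each among 43705 genes at 5 FPKM or more, over 7 points that share their libraries.

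Of the 75 SAUR-like genes compared, 15 were higher and 15 lower in the micropylar endosperm than over the other 6 compartments (20% each), near the 19.4% and 18.2% of all genes compared. The higher ones included the SAUR38 copy BnaC04g36450D, with 47 FPKM in the micropylar endosperm and at most 1 FPKM elsewhere, and the second SAUR38 copy, BnaA04g14360D, was listed at 7 FPKM there and 0 in every other compartment. SAUR31 (BnaCnng01670D) had 26 FPKM in the micropylar endosperm, 13 FPKM in the embryo proper, 3 FPKM in the peripheral endosperm, 25 FPKM in the inner seed coat and 0 in the other 3 compartments. Embryo markers were also detected in the micropylar endosperm, as given above, and their part in these values was not tested.

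The group of SAUR19 to SAUR24, the Arabidopsis proteins for which inhibition of the phosphatases and growth by cell expansion are best described, had 73 annotated copies in tandem arrays but only 24 detected ones, and 20 of these stayed below 5 FPKM. The 4 at 5 FPKM or more were all filial. BnaC03g08700D had 76 FPKM and BnaA10g16780D 71 FPKM in the micropylar endosperm, and both were listed at 0 in the other 6 compartments. BnaA02g26400D had 14 FPKM in the micropylar endosperm and 1 FPKM in the peripheral endosperm. BnaA03g06860D had 77 FPKM in the chalazal endosperm, 6 FPKM in the peripheral endosperm and 0 elsewhere. Copies in these arrays are close in sequence and reads could be divided among them in ways the deposited values do not show, so the level of any 1 copy is uncertain. SAUR61 to SAUR67 form a clade that promotes elongation of hypocotyls and stamen filaments in Arabidopsis. Counted together with further loci, among them AT1G29480 with 1 detected copy, they had 15 annotated copies. Of these, 9 were detected and 1 reached 5 FPKM, BnaA08g17900D with 7 FPKM in the embryo proper.

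In the embryo proper, 10 of the 75 SAUR-like genes (13.3%) were higher than over the other 6 compartments and 17 (22.7%) lower, against 20.1% and 17.2% of all genes compared. Several of the embryo's most abundant SAUR-like genes lay outside this comparison because no second column reached 1 FPKM. They are named here after their values were seen. The SAUR37 copies BnaA03g51410D and BnaC07g43240D had 43 and 25 FPKM in the embryo proper and 0 in the other 6 compartments and the whole seed. The SAUR50 copies BnaC01g03670D and BnaA01g02420D had 27 and 5 FPKM in the embryo proper and 0 in all other columns. SAUR50 and its close relative SAUR16 promote the opening of cotyledons in light in Arabidopsis. Of the SAUR16 copies, BnaA01g05190D had 6 FPKM in the embryo proper alone, and BnaC01g00010D had 10 FPKM in the micropylar endosperm, 4 FPKM each in the embryo proper and the inner seed coat and 1 FPKM in the peripheral endosperm.

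The peripheral endosperm lines most of the seed cavity and the chalazal endosperm forms a mass at its base. In the peripheral endosperm 6 of the 75 (8%) were higher and 9 (12%) lower, against 13.7% and 11.4% of all genes compared. In the chalazal endosperm 10 (13.3%) were higher and 15 (20%) lower, against 13.6% and 15.5%. SAUR40, which belongs with SAUR41, SAUR71 and SAUR72 to a clade that promotes cell expansion in Arabidopsis, had 1 copy, BnaA07g34680D. It stood at 59 FPKM in the peripheral endosperm, 4 FPKM in the chalazal endosperm and 0 in each of the remaining 5 compartments.

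Direct comparison of the chalazal with the peripheral endosperm gave 6 SAUR-like genes higher (8%) and 4 lower (5.33%) of 75, against 8.58% and 11.4% of all genes compared. The higher ones were led by BnaA03g06860D (77 FPKM in the chalazal and 6 FPKM in the peripheral endosperm), BnaC06g24340D (10 and 0 FPKM) and BnaC03g65060D (6 and 0 FPKM). On the lower side stood BnaA07g34680D (4 and 59 FPKM), BnaA10g06890D (0 and 5 FPKM), BnaA03g12170D (9 and 50 FPKM) and BnaC03g14890D (11 and 24 FPKM). With the columns brought to a common sum without organelle and ribosomal RNA genes, 1 gene was higher and 3 were lower, so the count of higher genes rests on the scaling. All genes then gave 3.14% and 17.5%. With a common median 3 were higher and 5 lower, against 4.47% and 18.7%. The genes BnaA03g06860D and BnaC03g65060D are 279 and 201 bases long. Without genes under 300 bases, 3 of 68 were higher and 3 lower, against 8.43% and 11% of all genes.

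Inner seed coat had low levels of many SAUR-like genes. Of the 75, 15 (20%) were higher there than over the other 6 compartments and 7 (9.33%) lower, against 15.4% and 6.99% of all genes compared. SAUR5 (BnaC01g03640D, chromosome C01, 1880546 to 1880860) led, with 40 FPKM in the inner seed coat, 1 FPKM in the outer seed coat and none in the other 5 compartments. Of the SAUR4 copies, BnaA01g02390D had 14 FPKM in the inner seed coat alone, and BnaC01g03650D had 14 FPKM there, 9 FPKM in the micropylar endosperm and 3 FPKM in the chalazal proliferating tissue. The SAUR47 copies BnaC05g31870D and BnaA05g18860D had 15 and 14 FPKM in the inner seed coat and at most 4 FPKM elsewhere.

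Copies of SAUR51 led in the outer seed coat. Of the 75 genes compared, 6 (8%) were higher there and 16 (21.3%) lower, against 14.8% and 10.4% of all genes compared, and the 3 most different were all SAUR51 copies. BnaAnng09090D had 51 FPKM in the outer seed coat, 16 FPKM in the inner seed coat, 3 FPKM in the chalazal proliferating tissue, 1 FPKM in the peripheral endosperm and 0 in the other 3 filial compartments. BnaC06g36290D had 31 FPKM in the outer seed coat but also 23 FPKM in the embryo proper, 13 FPKM in the micropylar endosperm and 4 FPKM in the inner seed coat. BnaC02g23710D had 16 FPKM in the outer seed coat, with 0 in the other 6 compartments. Many of the lower calls in every compartment are a value of 0 set against a mean carried by 1 other compartment.

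**Figure D3:**
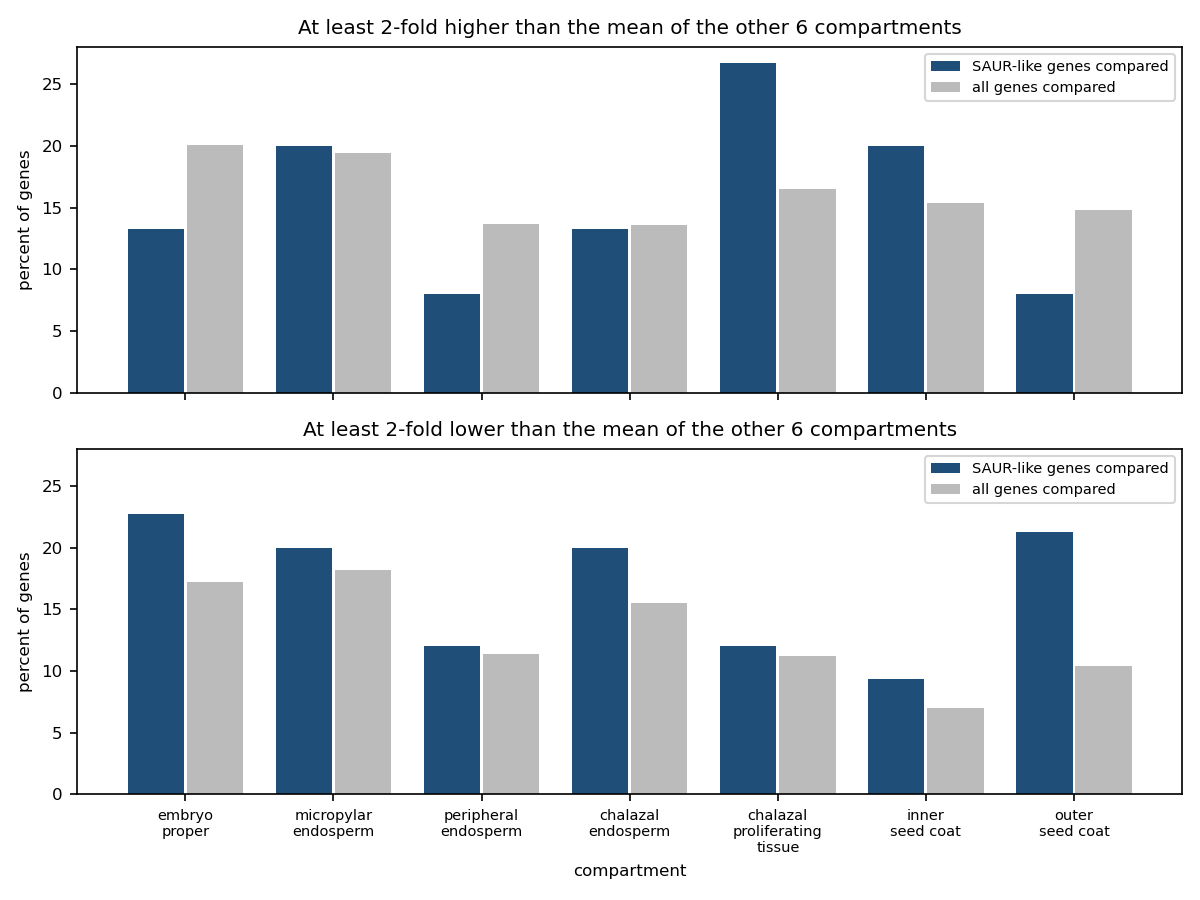
Share of SAUR-like genes compared (blue, 75 genes) and of all genes compared (grey, 54278 genes) that were higher (upper panel) or lower (lower panel) in a compartment than over the other 6, by a difference of at least 1 log2 unit with 5 FPKM or more on the higher side. The widest gap above the grey bars among higher genes is in the chalazal proliferating tissue (26.7% against 16.5%), and among lower genes in the outer seed coat (21.3% against 10.4%).

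How the columns are scaled to each other moved these counts. With columns scaled to a common median of detected genes, SAUR-like genes higher and lower numbered 10 and 17 in the embryo proper, 12 and 15 in the micropylar endosperm, 7 and 8 in the peripheral endosperm, 22 and 8 in the chalazal proliferating tissue and 17 and 6 in the inner seed coat. For all genes compared the shares then became 12.8% and 21.1%, 10.4% and 25.8%, 21% and 9.22%, 23.3% and 8.46%, and 23.8% and 5.2% in the same compartments. With columns scaled to a common sum without organelle and ribosomal RNA genes, SAUR-like genes higher and lower numbered 6 and 11 in the peripheral endosperm, 4 and 16 in the chalazal endosperm and 6 and 17 in the outer seed coat, where all genes gave 10.9% and 14.5%, 5.32% and 29.6%, and 24.7% and 6.6%. In the chalazal proliferating tissue 17 were higher and 9 lower under that scaling, against 13.8% and 13% of all genes. The median difference of all genes compared then lay at -0.79 log2 in the chalazal endosperm and 0.60 log2 in whole seed.

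Filial against maternal compartments, 7 of the 75 SAUR-like genes (9.33%) were higher and 17 (22.7%) lower, where all genes compared gave 10.1% and 16.9%. The median difference was -0.60 log2 for the SAUR-like genes and -0.17 log2 for all genes compared. After scaling of columns to a common median the split was 6 higher and 18 lower, against 7.07% and 24.1% of all genes, whose median moved to -0.46 log2, and with a common sum also 6 and 18, against 7.53% and 23.1%. The higher ones were led by BnaA04g26700D, which averaged 152.25 FPKM over the 4 filial and 0.667 FPKM over the 3 maternal compartments, and the lower ones by the SAUR51 copy BnaAnng09090D, which averaged 0.25 and 23.333 FPKM. The SAUR72 copy BnaA01g30290D had 0, 0, 2 and 0 FPKM in the embryo proper and then the micropylar, the peripheral and the chalazal endosperm, against 16, 11 and 11 FPKM in the chalazal proliferating tissue, inner and outer seed coat, so its filial and maternal values did not overlap. Of the 75 genes, 1 was higher and 2 were lower with filial and maternal values that did not overlap, against 1.69% and 4.41% of all genes compared.

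Pairs of neighbouring or contrasting compartments showed where within the maternal tissues the genes differed. The inner seed coat had 13 of 75 genes higher (17.3%) and 6 lower (8%) than the outer seed coat, against 11.7% and 9.03% of all genes compared. Its higher genes were led by BnaCnng01670D (25 FPKM in the inner and 0 in the outer seed coat), BnaC01g03640D (40 and 1 FPKM) and BnaC08g30850D (17 and 0 FPKM). The chalazal proliferating tissue had 17 genes higher (22.7%) and 9 lower (12%) than the inner seed coat, against 10.3% and 11.9% of all genes compared. Both SAUR33 copies were among the higher genes, listed at 0 in the inner seed coat, and the SAUR5 copy BnaC01g03640D was at 0 in the chalazal proliferating tissue against 40 FPKM in the inner seed coat. A common median gave 15 higher and 6 lower for inner against outer seed coat (17.7% and 7.02% of all genes), and a common sum 13 and 6 (8.36% and 12.3%). For the chalazal proliferating tissue against the inner seed coat a common sum gave 13 and 10 (6.44% and 15.7%).

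Across the border between maternal and filial tissue at the chalazal end, the chalazal proliferating tissue had 17 of 75 genes higher (22.7%) and 7 lower (9.33%) than the chalazal endosperm, against 17.8% and 13.3% of all genes compared. The 6 largest differences were BnaA10g06890D, the 2 SAUR33 copies and 3 SAUR59 copies, each at 58 to 89 FPKM in the maternal tissue and 0 in the chalazal endosperm. The embryo proper had 9 genes higher (12%) and 5 lower (6.67%) than the outer seed coat, against 19.1% and 16.5% of all genes compared. SAUR32 copies led the higher side, with BnaA04g26700D at 56 FPKM in the embryo proper and 0 in the outer seed coat, and BnaAnng09090D the lower side, at 0 in the embryo proper and 51 FPKM in the outer seed coat. A common median gave 20 higher and 6 lower for the chalazal tissues (24.4% and 8.79% of all genes) and 9 and 5 for embryo proper against outer seed coat (11.6% and 19.2%), and a common sum 17 and 4 for the chalazal tissues (22.9% and 5.99%).

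Copies of 1 Arabidopsis locus did not always share a compartment. Of 17 loci with 2 or more copies at 5 FPKM or more, all such copies had their highest value in the same compartment in 10 loci and in more than 1 compartment in 7. SAUR30 divided most, its 6 copies being highest in 4 different compartments. BnaA10g06890D and BnaC09g29950D were highest in the chalazal proliferating tissue, with 89 and 28 FPKM. BnaA03g12170D and BnaC03g14890D were highest in the peripheral endosperm, with 50 and 24 FPKM, and had 9 and 11 FPKM in the chalazal endosperm. BnaC02g44790D was highest in the chalazal endosperm, with 14 FPKM, and BnaA02g10190D in the micropylar endosperm, with 9 FPKM. The A and C copies on corresponding chromosomes A10 and C09, and A03 and C03, had the same highest compartment, whereas those assigned to A02 and C02 did not.

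Loci with exactly 1 A and 1 C copy among the detected genes, which are putative homeologs, numbered 10. Both copies had the same highest compartment in 4 of them, and in 4 of the 5 in which both copies reached 5 FPKM (SAUR47, SAUR38, SAUR33 and SAUR49). The fifth, SAUR54, had 10 FPKM in the embryo proper and 0 in the other 6 compartments for the A copy BnaA06g13980D, and 8 FPKM in the outer seed coat, 2 FPKM in the chalazal proliferating tissue, 1 FPKM each in the inner seed coat and peripheral endosperm and 0 in the embryo proper for the C copy BnaC07g15580D.

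SAUR genes lie in clusters, and neighbours were set side by side. With gaps of at most 50 kb, 48 of the 124 detected genes on placed chromosomes fell into 17 runs of 2 to 5 genes. All genes of a run shared the highest compartment in 2 runs, and each gene of those 2 had a highest value of 1 FPKM. Only the 2 longest runs held more than 1 gene at 5 FPKM or more. The count of shared runs therefore rests largely on values near the detection threshold and does not show whether neighbours differ. The 2 longest runs, on chromosome A01 (1207546 to 1233049, 25.5 kb) and chromosome C01 (1880546 to 1906115, 25.6 kb), held copies of the same 5 loci in the same order. In both, SAUR5, SAUR4 and SAUR3 were highest in the inner seed coat, SAUR50 was detected in the embryo proper alone, and SAUR49 was highest in the chalazal proliferating tissue. On A01 these values were 4, 14, 2, 5 and 50 FPKM, and on C01 they were 40, 14, 1, 27 and 18 FPKM. A SAUR1 copy inside the A01 run, BnaA01g02410D, was listed at 0 in all 7 compartments.

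In the tandem arrays of SAUR19 to SAUR24 the listed values of neighbours contrasted. Reads could be divided among these copies, as said above, so whether the neighbours themselves differ is uncertain. In the run on chromosome A10 (12628323 to 12640937), BnaA10g16780D had 71 FPKM in the micropylar endosperm and the other 3 detected genes had a highest value of 1 FPKM. In the run on chromosome C03 (4113967 to 4117470), BnaC03g08700D had 76 FPKM in the micropylar endosperm and its 3 neighbours had highest values of 1, 4 and 1 FPKM.

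**Figure D4:**
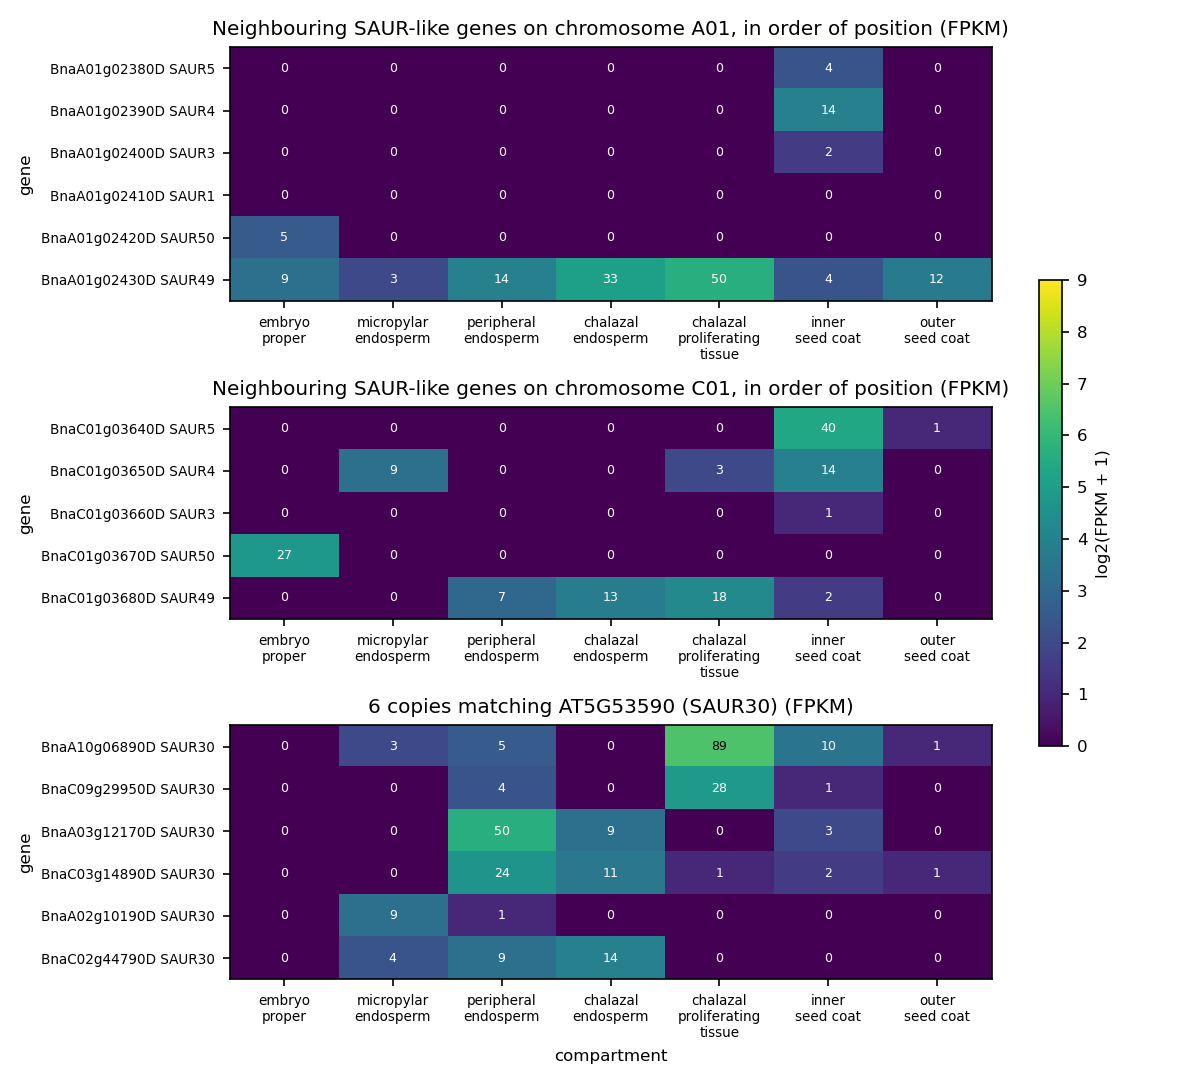
Level in the 7 compartments (printed numbers, FPKM; colour, log2(FPKM + 1)) of neighbouring SAUR-like genes on chromosomes A01 and C01 in order of position, and of the 6 copies of SAUR30. The runs on A01 and C01 had the same succession of inner seed coat, embryo proper and chalazal proliferating tissue, whereas the SAUR30 copies were highest in 4 different compartments.

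The whole seed column did not enter the choice of the 142 SAUR-like genes, but it counted towards the filter, and 10 of the 75 compared passed that filter with 1 compartment and whole seed. In whole seed 14 of the 75 SAUR-like genes (18.7%) were higher than over the 7 compartments and 7 (9.33%) lower, against 16.1% and 9.6% of all genes compared. With a common sum 18 were higher and 5 lower, against 27.2% and 5.83%. The 4 highest in whole seed were BnaA10g06890D with 105 FPKM (89 FPKM in its highest compartment), BnaAnng09090D with 56 FPKM (51 FPKM), BnaA01g30290D with 29 FPKM (16 FPKM) and BnaC06g36290D with 28 FPKM (31 FPKM). All 4 were highest in a maternal compartment. Among the 60 SAUR-like genes with a compartment value of at least 5 FPKM, 24 (40%) were listed at 0 in whole seed, against 18.1% of all genes at that level. Those 24 comprised 8 of the 10 that were highest in the embryo proper, 7 of 13 in the micropylar endosperm, 2 of 3 in the peripheral endosperm, 1 of 2 in the chalazal endosperm, 2 of 18 in the chalazal proliferating tissue, 4 of 9 in the inner seed coat and 0 of 5 in the outer seed coat. Shares of all genes by compartment are not given beside this split, so it does not set the family apart from other genes highest there. Embryo and endosperm marker genes were at or near 0 in the same column, as given above, and what part this has in the zeros was not tested.

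Conversely, 9 SAUR-like genes had more in whole seed than in any compartment, 7 of them at 5 FPKM or more in whole seed. The matching share of all genes is not given, so the count only describes the family. An AT3G09870 copy, BnaA05g28680D, had 27 FPKM in whole seed against 10 FPKM in the embryo proper and at most 3 FPKM elsewhere. The SAUR72 copy BnaA03g32480D had 19 FPKM in whole seed against at most 3 FPKM in a compartment, and the SAUR34 copy BnaA01g12340D had 12 FPKM against at most 1 FPKM. Both are named after their values were seen. Of the 143 annotated genes at 0 in all 7 compartments, 12 reached 1 FPKM in whole seed, the highest being BnaC05g43150D with 25 FPKM. A share of all genes is not given for this count either.

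The other genes of the acid growth and auxin response pathway were described from 7 lists of Arabidopsis loci. Of 67 copies of Aux/IAA repressors, 26 were higher and 9 lower in the embryo proper than over the other 6 compartments, and 24 higher and 10 lower in the micropylar endosperm. In the peripheral endosperm 2 were higher and 28 lower, and in the chalazal endosperm 0 were higher and 30 lower. All genes compared gave 20.1% and 17.2%, 19.4% and 18.2%, 13.7% and 11.4%, and 13.6% and 15.5% in these 4 compartments. The Aux/IAA median differences were 0.71, 0.74, -1.03 and -1.19 log2, against -0.33, -0.46, -0.06 and -0.33 log2 for all genes compared. Aux/IAA copies also numbered 26 higher and 2 lower in the inner seed coat (15.4% and 6.99% of all genes), 19 and 7 in the outer seed coat (14.8% and 10.4%), and 6 and 14 in the chalazal proliferating tissue (16.5% and 11.2%). IAA9 (BnaA06g24570D) had 157, 288, 3 and 1 FPKM in the 4 filial compartments, in the order above, and 87, 352 and 151 FPKM in the chalazal proliferating tissue, inner and outer seed coat. IAA17 (BnaA09g50590D) had 219 FPKM in the micropylar endosperm, 23 FPKM in the embryo proper and at most 1 FPKM elsewhere.

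Expansins, the wall-loosening proteins, had more copies higher than lower in the embryo proper and the micropylar endosperm. Of 40 copies, 16 were higher and 2 lower in the embryo proper, 16 higher and 2 lower in the micropylar endosperm, 2 higher and 13 lower in the peripheral endosperm, and 0 higher and 12 lower in the chalazal endosperm, beside the shares of all genes just given for these compartments. Their median differences were 0.80, 1.08, -0.70 and -0.76 log2. The EXPA5 copy BnaA06g31110D had 442 FPKM in the micropylar endosperm, 65 FPKM in the embryo proper and at most 20 FPKM elsewhere, and the EXPA15 copy BnaA02g26670D had 209 FPKM in the embryo proper and 79 FPKM in the micropylar endosperm. AUX1 and LAX importers were higher in the embryo proper for 9 of 12 copies and in the micropylar endosperm for 6, and lower for none in either, where 20.1% and 19.4% of all genes were higher. A common median left 7 and 3 of the 12 higher, against 12.8% and 10.4% of all genes. Quantile scaling gave 7 and 6 (19% and 18.3% of all genes), and a common sum 10 and 6 (26.9% and 20.6%). TIR1 and AFB receptors were higher for 9 of 19 copies in the embryo proper and lower for none. With columns scaled to a common median this became 3 of 19, near the 12.8% of all genes. In the inner seed coat 7 receptor copies were then higher, against 23.8% of all genes. Quantile scaling gave 5 of 19 higher in the embryo proper (19% of all genes), and a common sum 10 of 19 (26.9%).

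Proton pumps (AHA genes) and the clade D phosphatases that SAUR proteins bind were compared in the same way. Of 26 pump copies, 3 were higher and 9 lower in the embryo proper, 8 higher and 9 lower in the micropylar endosperm, and 2 higher and 10 lower in the chalazal proliferating tissue, where all genes gave 20.1% and 17.2%, 19.4% and 18.2%, and 16.5% and 11.2%. In the peripheral endosperm 6 pump copies were higher and 8 lower (13.7% and 11.4% of all genes). The chalazal endosperm also had 6 and 8 (13.6% and 15.5%). Pump copies higher and lower numbered 8 and 6 in the inner seed coat (15.4% and 6.99%) and 8 and 6 in the outer seed coat (14.8% and 10.4%). With a common median 3 pump copies were higher and 9 lower in the micropylar endosperm, against 10.4% and 25.8% of all genes. Quantile scaling gave 8 and 6 there (18.3% and 17.1%), and a common sum also 8 and 6 (20.6% and 18.1%). Single copies were sharply placed: the AHA1 copy BnaCnng39310D had 196 FPKM in the peripheral and 425 FPKM in the chalazal endosperm and at most 1 FPKM elsewhere, and the AHA3 copy BnaA02g08160D had 78, 107 and 57 FPKM in the chalazal proliferating tissue, inner and outer seed coat. Of 29 phosphatase copies, 10 were higher and 2 lower in the micropylar endosperm (19.4% and 18.2% of all genes). A common median gave 3 and 5 (10.4% and 25.8%). Quantile scaling gave 9 and 2 (18.3% and 17.1%), and a common sum 11 and 3 (20.6% and 18.1%). In the chalazal proliferating tissue 6 were higher and 1 lower, near the 16.5% of all genes that were higher. Among 9 copies of GH3 enzymes, several of which join auxin to amino acids, the GH3.9 copies BnaC04g00140D and BnaA05g00250D had 255 and 125 FPKM in the chalazal proliferating tissue and at most 6 and 3 FPKM in other compartments. The GH3.17 copies BnaA08g05580D and BnaC08g09990D had 27 and 21 FPKM in the peripheral endosperm, with at most 1 FPKM elsewhere.

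**Figure D5:**
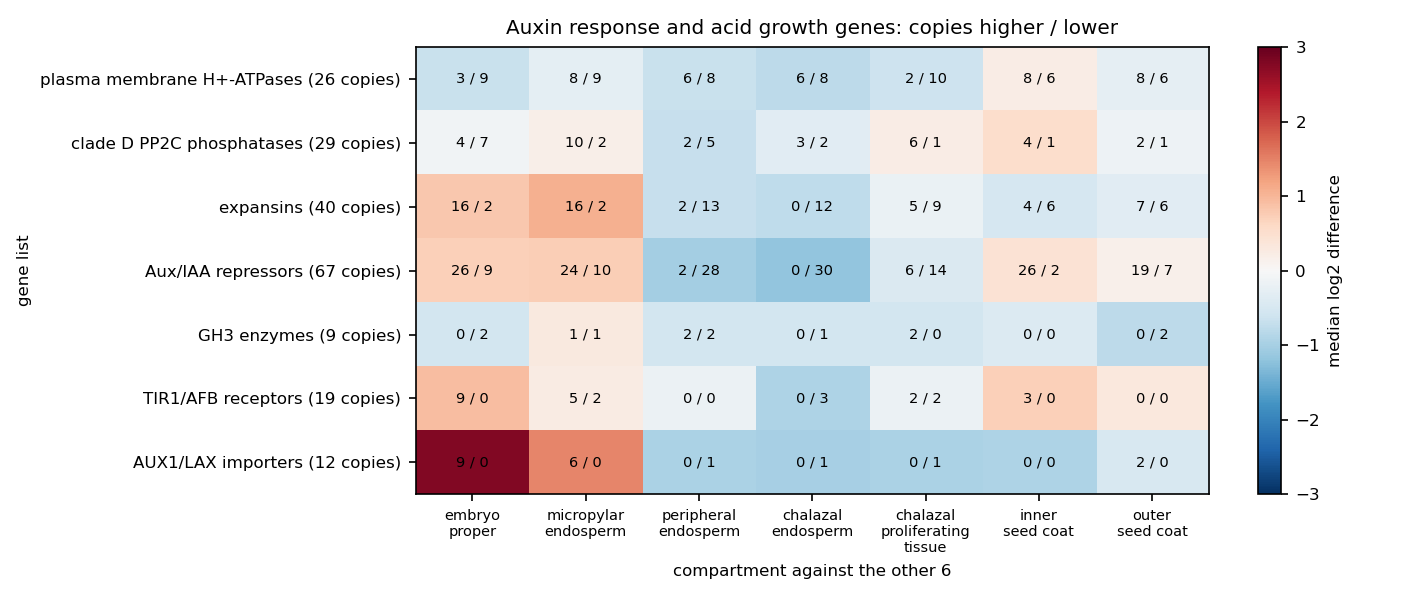
Copies of 7 gene lists counted as higher / lower (printed numbers) in each compartment than over the other 6, coloured by the median difference of log2(FPKM + 1) over the copies compared. Aux/IAA repressors and expansins had more copies higher than lower in the embryo proper and micropylar endosperm, and more lower than higher in the peripheral and chalazal endosperm. This held with the deposited values and with quantile, median and sum scaling of the columns. Aux/IAA copies were also more often higher than lower in the inner seed coat (26 and 2) and the outer seed coat (19 and 7). Shares of all genes are given in the text.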

How the data were processed

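RNA from seed compartments and from whole seed was prepared by the authors with a NuGen low-input kit, per the labels' protocols; how the compartments were separated is not given there. Trimmomatic 0.36, HISAT2 and Cufflinks are listed, per the submitters' processing notes, without settings; a genome build is not given in the sources used here. The deposited unit is a score: FPKM that the authors rounded to whole numbers (100% of values), 1 value per group from 2 to 4 libraries, with the way of combining them not stated. No unit stands in the whole seed heading; its values were read as FPKM. The other deposited column, in other units, is gene length in bases, and 1 column matching no sample was left out, per the file headers. Positions are those of the table with starts moved by 1, since subtracting the deposited start from the end gives the listed length for 17707 genes, and a length longer by 1 occurs for 0.

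Genes without compartment values (593) were dropped. Differences used a pseudocount of 1 in 14 comparisons. The planned limma test of replicate libraries could not be run with 1 column per group, and a rule of size replaced it; the code was checked on simulated data. Named SAUR-like genes were the 8 highest, up to 4 per compartment, 4 at each end of filial against maternal, 3 at each end of the pairs, the 4 highest in whole seed, the A and C pairs with the largest and smallest ratios, the 3 longest runs and the 3 genes most like the highest one; further copies of a locus already named, and genes outside the comparison, were added after their values were seen. In the lists, up to 2 copies per comparison with the largest difference were eligible. SAUR numbers were assigned to Arabidopsis loci by hand for this work. The SAUR-like genes and all lists were chosen with earlier results of these data known. Alternatives concerned pseudocount, filters, scaling, the 5 FPKM floor, genes under 300 bases, the micropylar endosperm column, detection threshold and gaps. Sequences were not used here. Computations ran in Python 3.11.15 with pandas 2.3.3 and numpy 2.4.6, and plots were drawn with matplotlib 3.10.9.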

Additional observations from a re-analysis of the deposited data

How the results depend on the processing

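No paired analysis was possible because each group has 1 deposited column, and for the same reason no replicate could be left out. Of 289 alternative values, most of them counts, which have no sign to turn, 256 stayed within 1.5 times the reported value and 33 moved further. The balance of higher and lower genes did turn for chalazal against peripheral endosperm (6 and 4), to 3 and 5 with a common median, 1 and 3 with a common sum and 9 and 24 without the 5 FPKM floor, and for embryo proper against outer seed coat (9 and 5), to 11 and 23 without the floor. The median difference of the SAUR-like genes turned in the inner seed coat (0.20 log2), to -0.12 with quantile scaling and -0.14 without a filter, and without a filter also in the chalazal proliferating tissue (0.67), to -0.17, and in whole seed (0.38), to -0.14. Of the 60 SAUR-like genes at 5 FPKM or more, 57 to 59 kept their highest compartment under quantile, median and sum scaling. A detection threshold of 5 FPKM left 60 genes in place of 142.

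Without a filter on low values, 12 genes (in place of 7) were higher in filial compartments and 14 (9) in embryo proper against outer seed coat. With a filter of 5 FPKM in 2 columns, 8 (15) were higher in the micropylar endosperm, 3 (6) in the outer seed coat and 11 (17) in chalazal proliferating tissue against inner seed coat, and 3 (6) were lower in inner against outer seed coat and 2 (5) in embryo proper against outer seed coat. A common median left 3 (6) higher in chalazal against peripheral endosperm. A common sum without organelle and ribosomal RNA genes left 4 (10) higher in the chalazal endosperm, 1 (6) higher in chalazal against peripheral endosperm and 4 (7) lower in chalazal proliferating tissue against chalazal endosperm, and made 1 gene (3) highest in the chalazal endosperm and 15 (9) in the outer seed coat; the micropylar share without those genes was 0.0953% (0.0601%). Without genes under 300 bases, 4 (7) were higher in filial compartments, 6 (10) in the chalazal endosperm and 3 (6) in chalazal against peripheral endosperm, and 3 (7) were lower in chalazal proliferating tissue against chalazal endosperm. Without the micropylar endosperm column, 4 (7) were lower in whole seed.

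Without the 5 FPKM floor more genes were lower in the embryo proper (28 in place of 17), micropylar (25, 15), peripheral (16, 9) and chalazal endosperm (23, 15) and outer seed coat (25, 16), and 11 (6) were higher in the outer seed coat. Inner against outer seed coat then gave 33 higher (13) and 14 lower (6), chalazal against peripheral endosperm 24 lower (4), chalazal proliferating tissue against inner seed coat 24 lower (9) and against chalazal endosperm 35 higher (17), embryo proper against outer seed coat 23 lower (5), and whole seed 23 higher (14). A lower floor admits genes whose higher mean lies under 5 FPKM, and stricter filters and length bounds leave fewer genes to count; for the scalings the cause was not tested. Depth is unknown, so no interval can be given for any level.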
